A study of Mus musculus with 130 samples.

Results

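The nuclear genes for the subunits of the oxidative phosphorylation complexes were followed in mouse embryonic stem cells, across 10 RNA-seq libraries. Members were the protein-coding genes whose symbol starts with Ndufa, Ndufb, Ndufc, Ndufs, Ndufv, Sdha to Sdhd, Uqcr, Cox4i, Cox5, Cox6, Cox7, Cox8 or Atp5. Assembly factors named Ndufaf (8 genes) and pseudogenes (9 by symbol and 3 by RefSeq gene type) were left out. The rule gave 86 of the 52550 genes in the deposited tables, of which 39 belonged to complex I, 4 to complex II, 8 to complex III, 18 to complex IV and 17 to complex V. The rule used symbols and gene types only, although it was set with earlier results of these data known. Ndufa4 was counted with complex I by its symbol, although its protein is found in complex IV. Subunit genes with other symbols, such as Cyc1 and Usmg5, were not members. Ndufb1-ps is among the 9 left out by symbol, although RefSeq lists it as the protein-coding gene Ndufb1.

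Oxidative phosphorylation takes place in the inner mitochondrial membrane. Complex I, NADH dehydrogenase, and complex II, succinate dehydrogenase, pass electrons to ubiquinone, complex III passes them on to cytochrome c, and complex IV, cytochrome c oxidase, passes them to oxygen. Complexes I, III and IV pump protons, and complex V, the ATP synthase, uses the proton gradient to make ATP. Complexes I, III, IV and V combine nuclear subunits with subunits encoded by mitochondrial DNA, whereas complex II is wholly nuclear. Several complex IV subunits have a second gene used mainly in muscle, lung or testis. Pluripotent cells make much of their ATP by glycolysis but keep functional respiratory complexes.

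The series compared embryonic stem cells that lack H3K9 methylation or DNA methylation enzymes. G9a (gene Ehmt2) and GLP (Ehmt1) are histone H3K9 methyltransferases, Dnmt1 maintains DNA methylation, and Dnmt3a and Dnmt3b set it de novo. The TT2 lines, of strain C57BL/6xCBA, were a wild type (WT TT2), G9a-/- cells with a transgene carrying G9a with substitutions Y1120V and Y1207F (clone G7, here G9a CM) and G9a-/-;GLP-/- cells (clone 248-6, here G9a/GLP DKO). Each G9a mutant is a single clone. The J1 lines, of strain 129S4/SvJae, were a wild type (WT J1), Dnmt 3a/3b-/- cells (here Dnmt DKO) and Dnmt1/3a/3b-/- cells (here Dnmt TKO), drawn in the plots as Dnmt3a/3b DKO or, for the latter, Dnmt1/3a/3b TKO. In an inhibitor series, WT TT2 cells received UNC0638, a small-molecule inhibitor of G9a and GLP, and were collected on day 2, 4 or 14, beside a DMSO control (the inhibitor control). The titles give the UNC0638 dose as 250 nM, the treatment protocol gives the same figure in µM, and neither says whether exposure was continuous to day 14. All cells were grown on gelatin with serum and LIF, and libraries were made by Smart-seq2 from total RNA.

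Each group held 1 library, so no difference below has a replicate check and no p-value is given. A genotype name stands for the library labelled so. Total counts were 11436808 (G9a/GLP DKO) to 25609614 (WT TT2). The mean fragment length was 150 bases in WT TT2, 184 to 198 in the other 5 line libraries and 251 to 275 in the 4 inhibitor-series libraries. Embryonic stem cell markers (8 of 8) were detected in each library, with a summed level of 8450 to 40781 TPM, and the 5 fibroblast markers summed to 1.99 to 5.64 TPM. Most of the stem cell marker sum was Dppa5a, at 6149 TPM in the lowest library (inhibitor control) and 39515 TPM in the highest (WT J1). Pou5f1 stood at 7.61 to 33.1 TPM in the 6 line libraries and at 435 to 557 TPM in the inhibitor series. As a check of the labels, Ehmt1 stood at 23.9 TPM in WT TT2, 30.7 TPM in G9a CM and 6.71 TPM in G9a/GLP DKO, and Dnmt1 at 15.7 TPM in WT J1 and 2.04 TPM in Dnmt TKO. Dnmt3b was at 5.30 TPM in WT J1, 1.02 TPM in Dnmt DKO and 0.81 TPM in Dnmt TKO. Ehmt2 (10.1 TPM in WT TT2, 13.0 TPM in G9a/GLP DKO) and Dnmt3a (4.66 TPM in WT J1, 5.07 TPM and 4.49 TPM in the mutants) were not lower in their knockouts, where a gene-level value need not show the deleted part.

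Levels between genes were compared in TPM, RSEM's unit of transcript abundance, which is scaled for transcript length. Subunit transcripts were abundant, with 65 of the 86 members above 100 TPM and 76 at 10 TPM or more in each of the 10 libraries. Their transcripts were also short, with a median length of 650 bases against 2106 bases for the genes tested, and 59 members were under 800 bases. The deposited posterior SD, which reflects how reads matching several genes were shared out, reached at most 0.393% of a member's count (Atp5l). It would not show reads placed wholly on a near-identical copy. Genes with processed pseudogenes, common among these members, still carry that uncertainty.

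In complex I the highest median levels over the 10 libraries were those of the accessory subunit Ndufa7 (1539.9 TPM), of Ndufa4 (1518 TPM) and of the accessory subunit Ndufa2 (977 TPM). The lowest were Ndufa4l2 (1.48 TPM), a paralog of Ndufa4 known as a hypoxia-responsive gene, and Ndufb4c, listed at a median of 0. In complex II, Sdhb, the iron-sulfur subunit, stood at 365 TPM, and the membrane anchors Sdhd and Sdhc at 246 and 239 TPM. Sdha, the flavoprotein that oxidises succinate, was lowest of the 4 at 78.9 TPM. In complex III, Uqcr10 (3149 TPM), Uqcrq (1501 TPM) and Uqcrb (1438 TPM), all small subunits, led, while the Rieske iron-sulfur protein Uqcrfs1 (310.3 TPM) and the core protein Uqcrc2 (243 TPM) were lowest. Complex IV was led by Cox4i1 (3397 TPM), Cox6c (2007 TPM) and Cox5a (1996 TPM), with the muscle isoforms Cox6a2 and Cox8b at a median of 0. Complex V was led by the catalytic beta subunit Atp5b (2414 TPM), the c-ring gene Atp5g1 (1872 TPM) and the stalk subunit Atp5j (1781 TPM). Atp5g2, another c-ring gene (23.8 TPM), and Atp5s (19.1 TPM) were lowest there.

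Summed over the 86 members, the level was 79977 TPM in WT TT2, 66783 in G9a CM, 64240 in G9a/GLP DKO, 88861 in WT J1, 71904 in Dnmt DKO and 69928 in Dnmt TKO. It was 46762 TPM in the inhibitor control, 49532 on day 2, 47012 on day 4 and 44710 on day 14. Each of the 4 mutant libraries lay below its own wild type, and the 4 inhibitor-series libraries lay below the 6 line libraries. As a share of all TPM this is 7.998% in WT TT2, 8.89% in WT J1, 6.42% to 7.19% in the 4 mutants and 4.47% to 4.95% in the inhibitor series. By complex the sum ran from 11823 to 28352 TPM for complex I, 807 to 1332 for complex II, 6529 to 12528 for complex III, 9719 to 26511 for complex IV and 15592 to 22811 for complex V. Complex II did not follow the others, being highest on day 2 of inhibitor and lowest in Dnmt TKO. Within a set of libraries the 76 members at 10 TPM or more varied little, with a median ratio of highest to lowest TPM of 1.41 over the TT2 lines, 1.43 over the J1 lines and 1.16 over the inhibitor series, but 3.25 over all 10.

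**Figure D1:**
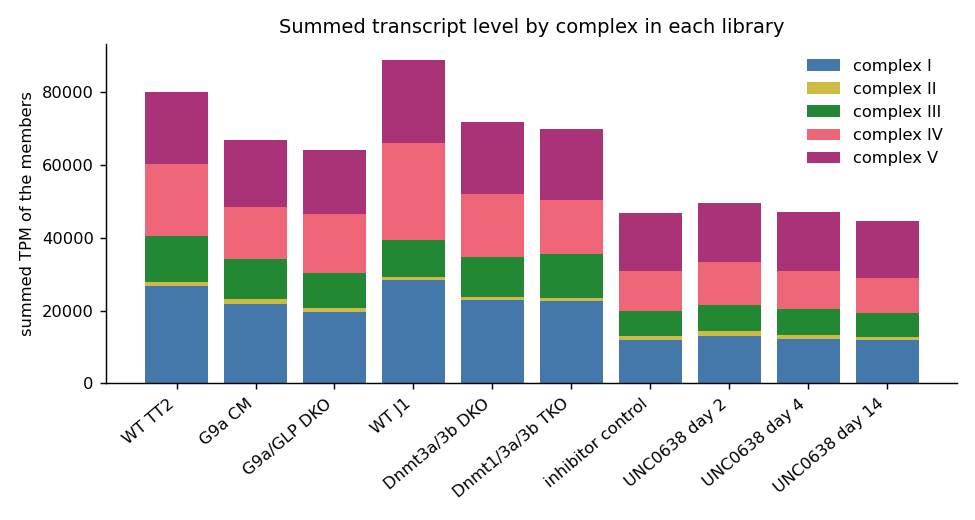
Summed TPM of the 86 subunit genes in each of the 10 libraries (1 library per group, so no error bars), stacked by complex I to V. WT J1 is highest at 88861 TPM, each mutant lies below its wild type, and the inhibitor series lies between 44710 and 49532 TPM.

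Differences between libraries were measured on counts scaled for library size (CPM, with TMM factors over the 10 libraries) as log2(CPM + 1). The 2-fold rule called a gene higher or lower if it reached 1 CPM in at least 1 of the libraries compared and this difference was 1 or more in size. It also required that a 95% interval for the ratio of the counts, exact and conditional on their sum (Clopper-Pearson), left out 1. The ranges printed after a fold are these intervals. Because amplified reads are not independent molecules, they cover counting error only. A looser 1.5-fold rule, set together with it and listed among the alternatives only after seeing the data, was used beside it. Medians of the members, of a complex or of a gene list are over all of its genes, tested or not. In bulk RNA, a smaller part of the cells carrying a transcript and less of it per cell cannot be told apart.

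Loss of G9a and GLP went with lower levels of most subunit transcripts. In G9a/GLP DKO against WT TT2, 18 of 81 members tested were lower by the 2-fold rule, where 7.99% of the 14072 genes tested were lower, and 1 was higher, where 9.12% of genes were. By the 1.5-fold rule 45 members were lower and 2 higher, against 20.1% and 19.4% of genes. The median member differed by -0.61 on the log2 scale and the median gene by -0.01. On deposited TPM, which takes effective length into account, 7 of 82 members were lower against 6.32% of genes, so by that scale the 2-fold share lay near the background while the median stayed at -0.50 relative to all genes.

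Cox5b, a nuclear subunit of complex IV, had 1303 TPM in WT TT2, 771 TPM in G9a CM and 619 TPM in G9a/GLP DKO. In the latter its CPM was 3.15-fold lower (3.02 to 3.29). Ndufa12, a small accessory subunit of complex I, had 836, 411 and 384 TPM in the same order. It was 2.88-fold lower (2.73 to 3.04) in G9a/GLP DKO and 2.49-fold lower (2.38 to 2.60) in G9a CM, the mutants lying close together and apart from WT TT2. Ndufb8, another complex I accessory subunit, had 1608, 876 and 759 TPM, a 2.82-fold (2.73 to 2.92) and a 2.27-fold (2.21 to 2.34) lower level in G9a/GLP DKO and G9a CM. Atp5j, a part of the peripheral stalk that holds the ATP synthase head still, had 3275, 2042 and 1520 TPM and was 2.80-fold lower (2.73 to 2.87) in G9a/GLP DKO. These genes shared a common order, WT TT2 above G9a CM above G9a/GLP DKO. They were picked for their difference in G9a/GLP DKO, a choice that favours this order. Cox6b2, picked in the same way, did not keep it, with 77.9, 38.0 and 39.8 TPM. Among the 6 members that differed most in G9a/GLP DKO, Cox7b2 alone was higher, and it is described with the isoforms below, as is Cox6b2.

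By complex, the lower calls in G9a/GLP DKO fell on 9 of 37 members tested of complex I (median log2 difference -0.64), 0 of 4 of complex II (-0.50), 1 of 8 of complex III (-0.67), 6 of 15 of complex IV (-0.47 over its 18 members, -0.71 over the 15 tested) and 2 of 17 of complex V (-0.41). Within the ATP synthase the 5 subunits of the catalytic F1 head had a median of 0.34, whereas the 4 of the peripheral stalk had -0.68 and the 4 accessory membrane subunits -0.91. Atp5d, the delta subunit of F1, was at 147 TPM in WT TT2 and 328 TPM in G9a/GLP DKO. The 7 core complex I subunits, which hold the flavin and iron-sulfur clusters, had a median of -0.57. Members past the 2-fold rule under all 4 scales tried (TMM, total count, median of ratios and deposited TPM) were Atp5j, Cox4i2, Cox5b, Cox6b1, Ndufa12, Ndufb3 and Ndufb8 among the lower ones and Cox7b2 above.

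In G9a CM, whose cells carry G9a with the paired tyrosine substitutions in place of the native enzyme, the same comparison gave smaller differences. By the 2-fold rule 12 of 82 members were lower, against 5.78% of the 13564 genes tested, and 0 were higher, against 4.97%. At 1.5-fold 32 were lower and 5 higher, against 18.4% and 13.5% of genes. The median member differed by -0.41 and the median gene by -0.08. On deposited TPM 2 of 83 members were lower, Cox6b2 and Ndufa12, against 4.95% of genes, which is no more than the background. Ndufb3, a small membrane subunit of complex I, had 554 TPM in WT TT2, 280 TPM in G9a CM (2.36-fold lower in CPM, 2.26 to 2.46) and 276 TPM in G9a/GLP DKO. Ndufa3, of the same complex, had 1194, 699 and 706 TPM and was 2.28-fold lower (2.17 to 2.40) in G9a CM. Ndufa13, also known as GRIM-19, had 384, 199 and 199 TPM and was 2.24-fold lower (2.15 to 2.33). For these 3 genes the mutants had nearly equal TPM. By complex, 6 of 38 complex I and 6 of 15 complex IV members were lower, with 0 in complexes II, III and V. The G9a CM and G9a/GLP DKO comparisons share WT TT2, so their likeness is not independent support for either.

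By CPM, the Dnmt mutants also had lower median subunit levels than their wild type, with complex IV and V leading. In Dnmt DKO against WT J1, 16 of 83 members were lower by the 2-fold rule (9.79% of the 13652 genes tested) and 1 was higher (9.46%). Under the looser rule, 49 were lower and 5 higher, against 21.7% and 22.1% of genes. The median member differed by -0.64 and the median gene by 0.03. On deposited TPM 4 of 83 members (4.82%) were lower against 6.17% of genes. By that scale the 2-fold share was no more than the background, while the median stayed at -0.56 relative to all genes. Medians by complex were -0.63 for complex I, -0.25 for II, -0.37 for III, -0.92 for IV and -0.69 for V.

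Ndufb11, an X-linked complex I accessory subunit, had 558 TPM in WT J1, 205 TPM in Dnmt DKO and 254 TPM in Dnmt TKO, a CPM 3.62-fold (3.46 to 3.79) and 2.85-fold (2.74 to 2.97) lower. WT J1 was the high library here, since WT TT2 and the G9a mutants lay at 199.7 to 245 TPM. Cox6c, a small complex IV subunit, had 4597, 2425 and 2089 TPM in WT J1 and the mutants, 2.58-fold (2.52 to 2.63) and 2.88-fold (2.83 to 2.95) lower. Cox6a1, the widely expressed form of subunit VIa, had 2528, 1394 and 1230 TPM and was 2.45-fold lower (2.39 to 2.51) in Dnmt DKO. For Cox6c, WT TT2 (2135 TPM) was again at the level of the Dnmt mutants, and for Cox6a1 it lay between them and WT J1 at 1888 TPM. Atp5s, which is related to ATP synthase coupling factor B, had 35.0, 13.9 and 19.9 TPM and was 2.59-fold lower (2.27 to 2.97) in Dnmt DKO.

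In Dnmt TKO against WT J1, 18 of 83 members were lower (10.5% of the 13837 genes tested) and 5 higher (11.1%). By the 1.5-fold rule 43 were lower and 7 higher, where 22.9% of genes were lower and 22.9% higher. The median member differed by -0.59 and the median gene by -0.01. On deposited TPM 5 of 83 members (6.02%) were lower against 6.48% of genes. Here too the 2-fold share was no more than the background, while the median stayed at -0.57 relative to all genes. Complex IV members were lower in 9 of 16 cases (median -0.99 over its 18 members, -1.07 over the 16 tested) and complex III in 1 of 8 (median -0.05). Ndufa7 had 3296 TPM in WT J1, 1946 TPM in Dnmt DKO and 1584 TPM in Dnmt TKO, where its CPM was 2.72-fold lower (2.66 to 2.79). Some members went the other way. Ndufb10, a complex I accessory subunit, had 258, 420 and 818 TPM in that order and was 2.45-fold higher (2.34 to 2.55) in Dnmt TKO. Atp5g1, whose product is the c-ring subunit, had 1018, 1761 and 2800 TPM and was 2.10-fold higher (2.05 to 2.15). WT J1 was the lowest of the 10 libraries for both, and with WT TT2 (648.5 and 1941 TPM) as control the log2 differences were 0.19 and 0.40, short of the rule. Uqcrc1, a core protein of complex III, had 118, 308 and 311 TPM, 2.04-fold higher in CPM, but 312 TPM in WT TT2, so WT J1 alone stood low. Both Dnmt comparisons share WT J1.

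The choice of wild type mattered for the Dnmt lines. Against WT TT2 in place of WT J1, 6 of 83 members were lower in Dnmt DKO (8.33% of genes) and 2 higher (7.15%), and the median was -0.38. In Dnmt TKO the counts were 6 lower (7.45%) and 2 higher (7.12%) of 82, and the median was -0.26. With this control the shares of lower members lay near those of all genes, and of the Dnmt calls made against WT J1 6 remained past the rule, 27 fell short of it and 7 reversed. Against WT J1 in place of WT TT2, 39 of 82 members were lower in G9a/GLP DKO (15.6% of genes) and 4 higher (18.3%), and 28 of 82 were lower in G9a CM (16.2%) and 5 higher (16%). Strain and genotype both differ in these swapped comparisons and cannot be told apart.

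**Figure D2:**
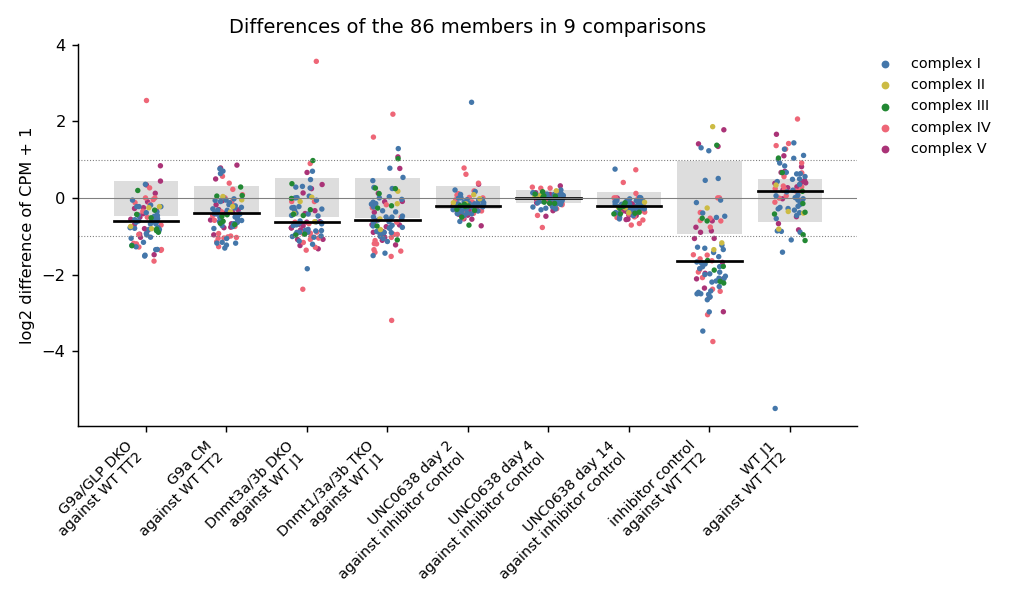
Log2 difference, on the log2(CPM + 1) scale, of each of the 86 subunit genes (dots, coloured by complex) in the 9 comparisons of 1 library with 1 library. Black lines mark the member median, grey bands the 25th to 75th percentile of the genes tested, and dotted lines the 2-fold rule. The member median lies at -0.61, -0.41, -0.64 and -0.59 in the 4 mutant comparisons, near 0 on day 4 of inhibitor and at -1.66 in the inhibitor control against WT TT2.

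Comparisons of the G9a and Dnmt mutants share no library, so their lower calls can be set side by side. At 1.5-fold, G9a/GLP DKO and Dnmt DKO shared 31 lower members, 68.9% of the 45 and 63.3% of the 49, while over all genes tested the shared lower calls were 37.2% and 35.5% of each list. G9a/GLP DKO and Dnmt TKO shared 27, 60.0% and 62.8%, against 36.6% and 32.7% over all genes. G9a CM shared 24 with Dnmt DKO (75.0% of 32 and 49.0% of 49) and 22 with Dnmt TKO (68.8% and 51.2%), against 33.2% and 27.9%, and 33.0% and 25.9%, over all genes. By the 2-fold rule only 3 to 5 members were shared by such pairs, and the shares for G9a/GLP DKO with Dnmt DKO, 22.2% and 25.0%, lay near those of all genes, 26.1% and 22.0%. The members that passed both 2-fold rules there were Atp5j, Cox6a1, Cox6b2 and Ndufb3. For G9a/GLP DKO with Dnmt TKO the 2-fold shares were 27.8% and 27.8%, against 26.3% and 20.3% over all genes. G9a CM gave 25.0% and 18.75% with Dnmt DKO, against 23.7% and 13.9%. With Dnmt TKO it gave 33.3% and 22.2%, against 23.6% and 12.7%. Lists in which more members are lower share more of them for that reason alone, and no test of these overlaps was made.

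Transcript length moved with these differences. WT TT2 had the shortest fragments of the 10 libraries, and effective length depends on fragment length most for short transcripts. Among the 59 members under 800 bases the median log2 difference was -0.68 in G9a/GLP DKO, -0.56 in G9a CM, -0.78 in Dnmt DKO and -0.73 in Dnmt TKO, while all genes tested of that length had -0.29, -0.26, -0.45 and -0.29. Among the 21 members of 800 to 1500 bases the medians were -0.57, -0.22, -0.46 and -0.47 in the same order, and over all genes of that length -0.19, -0.07, -0.14 and -0.01. The 6 members above 1500 bases had -0.29, 0.04, -0.08 and -0.09. The Spearman correlation of transcript length with the difference over the members, a description in which points share their libraries, was 0.22 to 0.37 in the 4 mutant comparisons. In WT J1 and its mutants the fragment lengths were 186, 197 and 191 bases, and in WT TT2, G9a CM and G9a/GLP DKO 150, 184 and 198 bases. How far fragment length enters the differences was not tested.

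Few subunit transcripts differed past either rule with UNC0638. On day 2 against the inhibitor control, 1 of 81 members was higher by the 2-fold rule (2.98% of the 13294 genes tested) and 0 were lower (1.93%). Under the looser rule, 3 were higher (11.6% of genes) and 3 lower (8.55%). On day 4, 0 of 80 members were higher (2.07%) and 0 lower (0.625%) by the 2-fold rule, and 0 were higher (5.34%) and 1 lower (3.55%) by the 1.5-fold rule. On day 14, 0 of 81 were higher (2.65%) and 0 lower (0.622%) by the 2-fold rule, and 2 were higher (6.28%) and 2 lower (4.24%) by the 1.5-fold rule. Median members differed by -0.22 on day 2, 0.00 on day 4 and -0.22 on day 14, and median genes by -0.01, 0.03 and -0.06. The day 2 median changed sign with scaling, at 0.020 by total count and 0.088 on TPM, where the median of all genes also moved, by over 0.2. The summed CPM of the members was 1.17-fold lower on day 2 and 1.19-fold lower on day 14, and that of all genes tested 1.19-fold and 1.10-fold lower. Summed TPM of the members was higher on day 2 (49532) than in the control (46762). These 3 comparisons share the inhibitor control.

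Few members stood out by name in the inhibitor series. Ndufa4l2 (chr10:127509274-127517154, GRCm38), had 1.55 TPM in the inhibitor control, 22.8 TPM on day 2, 1.40 TPM on day 4 and 5.63 TPM on day 14. Its counts were 12 in the control and 191 on day 2, a 10.9-fold higher CPM (6.09 to 21.4), and on day 14 it was 2.46-fold higher (1.25 to 5.20). Day 2 was the high library and day 4 lay at the control level, so the values did not follow the days of treatment. Cox7a1, the heart and skeletal muscle form of subunit VIIa, had 15.2, 43.5, 22.8 and 37.9 TPM in the same order and was 2.08-fold higher on day 2 and 2.00-fold higher on day 14. Cox6b2 had 33.7, 70.4, 18.5 and 24.8 TPM, 1.60-fold higher on day 2 and 1.88-fold lower on day 4. The lower members by the 1.5-fold rule were Atp5g2, Ndufa5 and Uqcrh on day 2 and Cox6b1 and Cox7b on day 14.

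Tissue-restricted isoforms held the largest differences in the Dnmt mutants, and 1 of them, Cox7b2, in G9a/GLP DKO. Cox7b2 and Cox6b2, known from testis, replace Cox7b and Cox6b1 in complex IV there. The 250 bases upstream of the start of each gene are shown for these isoforms and their ubiquitous partners because the Dnmt enzymes methylate mainly CG dinucleotides, given in capitals. They are taken from RefSeq on GRCm38.p6, 5′ to 3′ on the strand of the gene.
Cox7b2, chr5:71548206-71548455, minus strand: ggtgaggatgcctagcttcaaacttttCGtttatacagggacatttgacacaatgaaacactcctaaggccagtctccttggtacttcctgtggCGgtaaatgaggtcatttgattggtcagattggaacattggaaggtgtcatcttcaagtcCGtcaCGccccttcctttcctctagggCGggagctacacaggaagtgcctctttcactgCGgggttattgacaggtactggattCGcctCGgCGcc
Cox7b, chrX:106015450-106015699, plus strand: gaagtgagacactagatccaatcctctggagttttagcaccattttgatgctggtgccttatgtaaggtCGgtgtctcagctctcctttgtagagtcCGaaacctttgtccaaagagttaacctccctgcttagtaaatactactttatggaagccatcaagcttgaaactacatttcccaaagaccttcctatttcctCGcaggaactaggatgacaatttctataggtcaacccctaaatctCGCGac
Cox6b2, chr7:4753095-4753344, minus strand: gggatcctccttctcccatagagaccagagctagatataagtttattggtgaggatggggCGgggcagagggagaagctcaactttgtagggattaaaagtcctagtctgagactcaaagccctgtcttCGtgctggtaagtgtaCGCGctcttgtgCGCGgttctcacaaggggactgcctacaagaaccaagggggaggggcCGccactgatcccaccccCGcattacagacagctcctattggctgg
Cox6b1, chr7:30626115-30626364, minus strand: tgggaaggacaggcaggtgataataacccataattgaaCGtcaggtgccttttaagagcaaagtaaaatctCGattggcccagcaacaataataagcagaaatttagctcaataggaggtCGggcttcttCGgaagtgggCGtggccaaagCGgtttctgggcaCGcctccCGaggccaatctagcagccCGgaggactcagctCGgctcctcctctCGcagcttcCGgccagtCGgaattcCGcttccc
The Cox7b2 stretch holds 9 CG and that of Cox7b 5, and the Cox6b2 stretch holds 8 and that of Cox6b1 14. The isoforms are thus not set apart from their partners in one direction by CG content, and methylation of these stretches was not analysed here.

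Cox7b2 (chr5:71442823-71548205) had 3.47 TPM in WT TT2, 7.73 TPM in G9a CM, 42.5 TPM in G9a/GLP DKO, 6.00 TPM in WT J1, 127 TPM in Dnmt DKO and 45.4 TPM in Dnmt TKO. In the inhibitor series it stayed between 1.82 and 2.41 TPM. The 3 knockouts of a methyltransferase pair or triple were high, and the wild types, G9a CM and the inhibitor series low. CPM was 9.16-fold higher (6.34 to 13.6) in G9a/GLP DKO, 15.6-fold (11.5 to 21.8) in Dnmt DKO and 5.79-fold (4.20 to 8.17) in Dnmt TKO, under all 4 scales past the 2-fold rule. Cox7b remained the larger of the pair, since Cox7b2 made up 0.296% of their summed TPM in WT TT2, 4.64% in G9a/GLP DKO, 0.271% in WT J1, 7.77% in Dnmt DKO and 3.76% in Dnmt TKO.

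Cox8c (chr12:102899306-102900534), a testis-associated form of subunit VIII, had 1.51 TPM in WT TT2, 3.67 TPM in G9a CM, 3.37 TPM in G9a/GLP DKO, 1.10 TPM in WT J1, 6.04 TPM in Dnmt DKO and 11.6 TPM in Dnmt TKO. Its counts were 6 in WT J1 and 59 in Dnmt TKO, an 8.06-fold higher CPM (3.49 to 22.8), and in Dnmt DKO the fold was 4.04 (1.63 to 12.0). The interval is wide because the counts are few. Cox6b2 (chr7:4751792-4753094) went the other way, with 77.9 TPM in WT TT2, 38.0 TPM in G9a CM, 39.8 TPM in G9a/GLP DKO, 294 TPM in WT J1, 73.6 TPM in Dnmt DKO and 41.3 TPM in Dnmt TKO. Its CPM was 2.72-fold lower (2.28 to 3.27) in G9a/GLP DKO, 2.53-fold (2.17 to 2.96) in G9a CM, 5.39-fold (4.85 to 6.00) in Dnmt DKO and 9.77-fold (8.57 to 11.2) in Dnmt TKO. WT J1 was far above the other 9 libraries, so the Dnmt differences rest on that library, and the Dnmt mutants lay at or below WT TT2. The 3 testis-associated isoforms therefore did not move as 1 group.

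The other restricted isoforms were low or did not follow genotype. Cox7a1 (chr7:30184171-30186030) had 100 to 193 TPM in the 6 line libraries and 15.2 to 43.5 TPM in the inhibitor series. Cox4i2, a lung-enriched form of subunit IV, had 2.65 to 11.1 TPM over the 10 libraries, with 6.86 TPM in WT TT2, 3.01 TPM in G9a CM and 2.65 TPM in G9a/GLP DKO. The striated-muscle isoforms Cox6a2 and Cox8b stayed at or below 0.20 and 0.57 TPM, and Cox8b was above 0 only in WT J1 and Dnmt DKO. Testis germ cell markers other than Ldhc were at 0 to 1.28 TPM, with Prm2 at 0 in all 10 libraries. Ldhc, a testis lactate dehydrogenase, had 2.17 TPM in WT TT2, 11.8 TPM in G9a CM and 10.4 TPM in G9a/GLP DKO, and 0.13 TPM in WT J1, 7.63 TPM in Dnmt DKO and 10.3 TPM in Dnmt TKO. For Ldhc the G9a mutants lay close together, unlike for Cox7b2. Ubiquitous partners of the isoforms (7 genes) were mostly lower, with medians of -0.82, -0.75, -1.05 and -1.20 in G9a/GLP DKO, G9a CM, Dnmt DKO and Dnmt TKO. By the 2-fold rule 2, 2, 4 and 6 of them were lower, where 7.99%, 5.78%, 9.79% and 10.5% of all genes were. Under all 4 scales only Cox6b1 in G9a/GLP DKO and Cox6a1 in Dnmt TKO stayed past it.

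**Figure D3:**
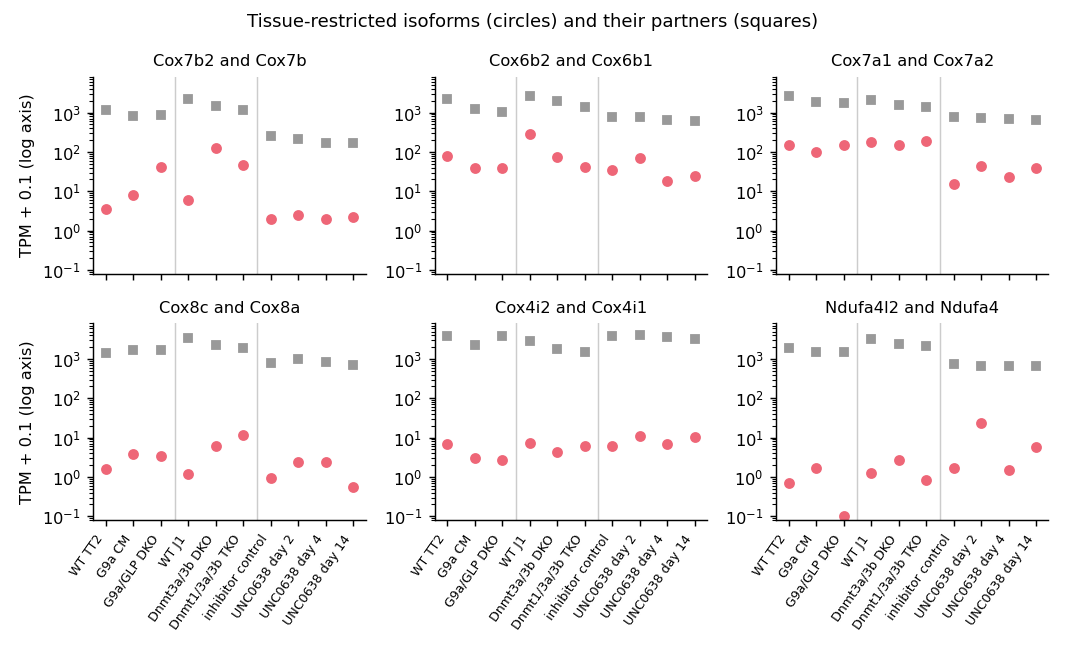
TPM + 0.1 on a log axis of 6 tissue-restricted isoforms (circles) and their ubiquitous partners (squares) in the 10 libraries, 1 library per group. Cox7b2 is highest in Dnmt DKO (127 TPM), Dnmt TKO (45.4 TPM) and G9a/GLP DKO (42.5 TPM), Cox6b2 in WT J1 (294 TPM) and Ndufa4l2 on day 2 of inhibitor (22.8 TPM), and each stays below its partner.

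Some members separated the lines rather than the mutations. Ndufs5 (chr4:123712710-123718186), a small accessory subunit of complex I, had 402 TPM in WT TT2, 331 TPM in G9a CM, 317 TPM in G9a/GLP DKO and 156 to 173 TPM in the inhibitor series. In the J1 libraries it had 6.36 TPM (WT J1), 5.77 TPM (Dnmt DKO) and 7.44 TPM (Dnmt TKO). With 34 counts in WT J1 and 3528 in WT TT2, its CPM was 64.7-fold lower (46.2 to 93.6) in WT J1. The 3 J1 libraries lay apart from the other 7 without overlap, so the low level went with the line and not with the Dnmt genotype. Whether it reflects transcription or reads of the 129S4/SvJae allele that map to a copy elsewhere was not tested.

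In WT J1 against WT TT2, 11 of 82 members were higher by the 2-fold rule (11% of the 13707 genes tested) and 4 lower (12.8%). By the 1.5-fold rule 24 were higher and 11 lower, against 22.1% and 26.3% of genes. The median member differed by 0.19 and the median gene by -0.06, but on deposited TPM the median member differed by -0.014. On that scale 7 of 83 members were higher and 10 lower, against 8.56% and 19.2% of genes, so the direction depended on the scale. Atp5l, an accessory membrane subunit of ATP synthase, had 74.5 TPM in WT J1, 57.1 and 58.4 TPM in the Dnmt mutants and 25.0 TPM in WT TT2, 3.33-fold higher (2.90 to 3.84) in WT J1. Cox8a, the widely expressed subunit VIII, had 3395 TPM in WT J1 and 1443 TPM in WT TT2, 2.68-fold higher (2.62 to 2.73). Cox6b2 was 4.27-fold higher (3.92 to 4.64) and Ndufb11 2.71-fold higher (2.62 to 2.81). Of the 3 X-linked members, 2 were higher in WT J1, with a median of 1.36 for Ndufa1, Ndufb11 and Cox7b.

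The inhibitor control and WT TT2 carry the same line label but lay further apart in these genes than any mutant and its wild type. Against WT TT2, 58 of 81 members were lower in the inhibitor control by the 2-fold rule (23.7% of the 13718 genes tested) and 7 higher (24.1%). At 1.5-fold 66 were lower and 7 higher, against 35.6% and 33.8% of genes. The median member differed by -1.66 and the median gene by -0.07. On deposited TPM 42 of 83 members were lower against 17.2% of genes, and the member median relative to all genes was -1.10. Over the members, 45 were lower and 9 higher in every inhibitor-series library than in every line library. The same count over all genes was not made, so these numbers do not set the members apart from other genes.

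Cox7a1 had 150 TPM in WT TT2 and 15.2 TPM in the inhibitor control, 19.7-fold lower in CPM (13.5 to 30.1). Ndufa3 had 1194 and 198 TPM (11.6-fold lower, 10.3 to 13.0). Cox7c, a small subunit of complex IV, had 569.6 and 116 TPM (8.53-fold lower, 7.68 to 9.51). Ndufa1, an X-linked complex I subunit, and Atp5k, the e subunit of ATP synthase, were 8.07-fold and 8.06-fold lower, and Ndufb2 6.42-fold. Catalytic and core subunits were among the 7 higher members, each with a transcript longer than the member median. Atp5b had 1578 TPM in WT TT2 and 4929 TPM in the inhibitor control, Sdha 74.3 and 308 TPM, Atp5d 147 and 571 TPM, and Uqcrc1 312 and 1113 TPM. Atp5a1 and Ndufv1 were higher too. Medians by complex were -1.80 for complex I, -0.72 for II, -1.71 for III, -1.54 for IV and -1.06 for V, and 1.34 for the F1 head alone against -2.36 for the accessory membrane subunits.

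**Figure D4:**
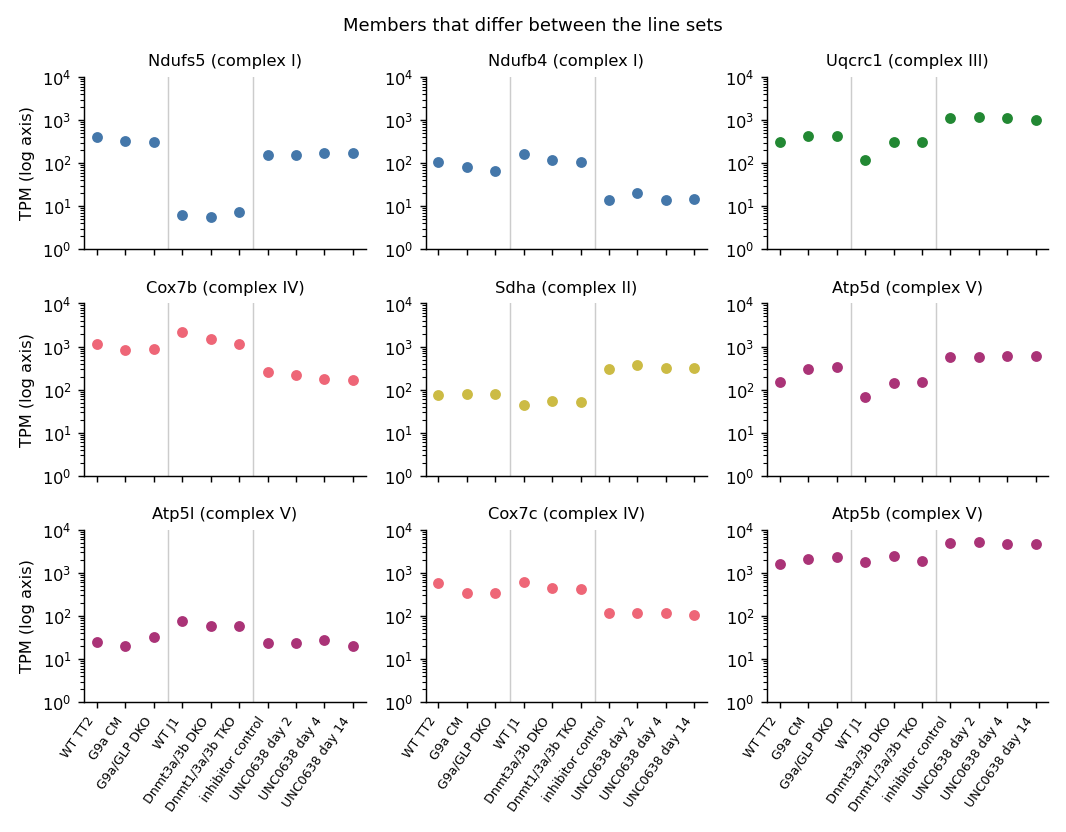
TPM on a log axis of 9 members in the 10 libraries, 1 library per group. Ndufs5 stands at 5.77 to 7.44 TPM in the 3 J1 libraries, Uqcrc1, Sdha, Atp5d and Atp5b are higher and Ndufb4, Cox7b and Cox7c lower in the inhibitor series than in the 6 line libraries.

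Transcript length went along with this contrast more closely than with any other, with a Spearman correlation of 0.61 over the members. The 59 members under 800 bases had a median of -1.94, all genes tested of that length -1.25. Members of 800 to 1500 bases had -0.77 and genes -0.43, and members above 1500 bases had 0.93 and genes 0.22. Fragment length was 150 bases in WT TT2 and 251 bases in the inhibitor control. DMSO treatment and any other difference between these libraries cannot be told apart, and the inhibitor days were compared only with their own control.

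**Figure D5:**
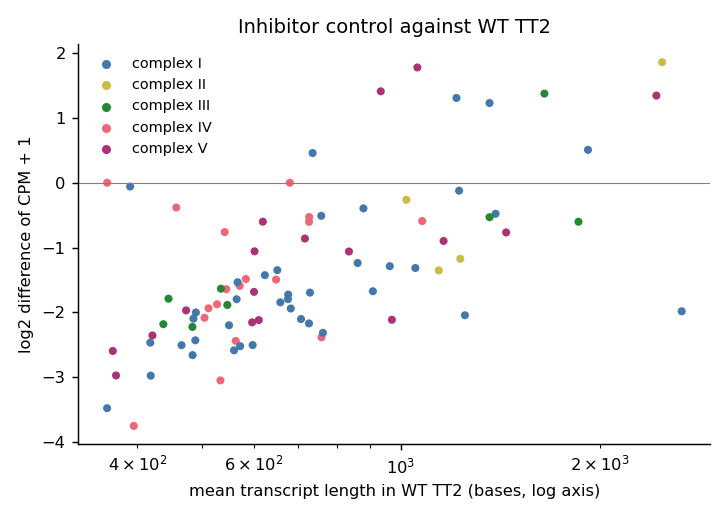
Transcript length in WT TT2 (bases, log axis) against the log2 difference of inhibitor control and WT TT2 on the log2(CPM + 1) scale, for the subunit genes. Most members under 800 bases lie below 0 and the members above 1500 bases mostly above it.

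The widest spread over the 10 libraries among members with at least 10 TPM in each was that of Cox6b2, whose highest level was 15.9 times its lowest, followed by Cox7b (13.0), Cox7a1 (12.7), Ndufb4 (11.6), Uqcrc1 (10.03), Atp5d (8.97) and Sdha (8.68). For each of these but Cox6b2 the inhibitor series did not overlap the line libraries. They were picked for their spread over the same libraries, which favours such a gap, and the same count over all genes was not made. The steadiest were Uqcrfs1 (1.35), the c-ring gene Atp5g3 (1.43), the stalk subunit Atp5o (1.44) and Uqcrc2 (1.45). Uqcrfs1 lay between 278 and 375 TPM.

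Promoters of these genes are known for motifs of NRF1, ETS-family factors and YY1. RefSeq windows on GRCm38.p6, from 250 bases before to 50 after each start, matched 69 of the 86 members (74 windows). Searched on both strands, the NRF1 core TGCGCA was in 19 of the 74 windows (25.7%), against 9.74% of 21263 windows of protein-coding genes and 7.76% of all 32851. The ETS core CCGGAAG was in 21.6% of member windows and 11.6% of coding windows, and the YY1 core AAGATGG in 14.9% and 6.24%. The SP1 box GGGCGG was in 40.5%, against 46.2% of coding windows. No motif holds another. The median window held 19 CG dinucleotides for members, 13 for coding genes and 7 for all genes, and motifs rich in CG are met more often in such windows. By complex the NRF1 core was in 11 of 35 windows of complex I, 2 of 3 of II, 1 of 5 of III, 2 of 13 of IV and 3 of 18 of V. The windows of Cox7b2 and Cox6b2 held the SP1 box and no other of these motifs, that of Cox6b1 the ETS core and that of Cox7b none. A match is a description of letters and does not show binding.

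Other genes of the pathway were described from fixed lists. Assembly factors, which build the complexes without staying in them, were lower by the 2-fold rule in 6 of 51 cases in G9a/GLP DKO (median -0.47), 2 in G9a CM (-0.19), 11 in Dnmt DKO (-0.41) and 6 in Dnmt TKO (-0.08). The shares of all genes lower there were 7.99%, 5.78%, 9.79% and 10.5%, so the assembly factors lay near the background in Dnmt TKO and below it in G9a CM. Of the 13 enzymes of the tricarboxylic acid cycle, which feed electrons to complexes I and II, 1, 0, 1 and 1 were lower in the same order, with medians of -0.15, 0.07, -0.01 and -0.07. Regulators of mitochondrial biogenesis, among them Nrf1, Gabpa, Esrra and Tfam, had medians of 0.03, -0.04, 0.08 and 0.25. Subunits encoded in mitochondrial DNA were measured unevenly, because several of them, such as mt-Co2 and mt-Atp6, were at 0 to 4.61 TPM while mt-Nd1 had 5064 to 15178 TPM. Their medians over all 13 genes were 0.00, -0.31, 0.15 and -0.09, and over the 8 or 10 tested 0.32, -0.49, 0.03 and -0.32. In the inhibitor control against WT TT2, 29 of 51 assembly factors and 8 of 10 mitochondrially encoded subunits were lower, where 23.7% of genes were.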

How the data were processed

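RNA-seq of 10 embryonic stem cell libraries was used, 1 library per group, and the other samples of the 130 in the series were not analysed here. Per the submitters' processing notes, the authors used STAR 2.5.3a for alignment to GRCm38 (mm10) and RSEM for counting. Annotation release and strand setting are not given in the sources used here. Overlapping genes cannot be told apart. The deposited files hold expected counts per gene, in which reads matching several genes are shared out, with their posterior SD, and TPM, which the authors scaled for effective length and library total, per the file headers. The deposited transcript and effective lengths are other values of RSEM, in bases.

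Expected counts were rounded and scaled to CPM with TMM factors over the 10 libraries (edgeR 4.0.16, R 4.3.3). Differences are log2(CPM + 1), and folds are CPM ratios without a pseudocount, with exact 95% conditional binomial (Clopper-Pearson) intervals that cover counting error only. Calls need a log2 difference of 1 and 1 CPM in either library, and describe libraries, not conditions. The calling steps were tested on simulated Poisson counts, which hold counting error only and no spread between libraries. Alternatives were total count, DESeq2 1.42.0 size factors, deposited TPM, a pseudocount of 0.1, minimums of 0 and 10 CPM, no restricted isoforms and the other wild type. The genes named were, per comparison, the 6 members with the largest difference past the 2-fold rule, the members of each complex with the 3 highest and 2 lowest median TPM, the 8 widest and 4 steadiest over libraries, and the restricted isoforms with their partners. A few others, such as Ndufb10, were named after their values were seen. The same holds for Atp5g1 and Uqcrc1 in the Dnmt TKO comparison, although the rule named them for their level and their spread. Members and lists were chosen with earlier results of these data known. RefSeq types were found for 86 members, 2 of them through an older symbol. Results for 1 member are not reported here.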

Additional observations from a re-analysis of the deposited data

How the results depend on the processing

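No paired analysis was possible because each RNA group holds 1 library, and for the same reason no replicate could be left out. Of 152 member differences past the 2-fold rule, 71 remained under the 3 other scalings, the pseudocount of 0.1 and, in the 4 mutant comparisons, the other wild type. Most of the 71 came from the inhibitor control against WT TT2, where 42 of 58 lower and 7 of 7 higher calls held. In the mutants the 4 scales alone kept 7 of 18 lower calls in G9a/GLP DKO and 2 of 12 in G9a CM. They kept 4 of 16 in Dnmt DKO and 5 of 18 in Dnmt TKO. Of higher calls they kept 1 of 1 in G9a/GLP DKO, 1 of 1 in Dnmt DKO and 4 of 5 in Dnmt TKO. With the other wild type fewer of these remained. The CPM minimums and the set without restricted isoforms were run for counts only. Dropping the CPM minimum changed no count by more than 1.5 times. At the 1.5-fold threshold, set with the 2-fold rule but listed as an alternative only after seeing the data, members higher and lower were 2 and 45 in G9a/GLP DKO, 5 and 32 in G9a CM, 5 and 49 in Dnmt DKO, 3 and 3 on day 2, 2 and 2 on day 14 and 24 and 11 in WT J1 against WT TT2, with 43 lower in Dnmt TKO and 1 lower on day 4. On deposited TPM they were 2 and 7 (median -0.30) in G9a/GLP DKO, 2 and 2 (-0.21) in G9a CM, 4 and 4 (-0.23) in Dnmt DKO and 7 and 10 (-0.014, opposite in sign to the 0.19 by TMM) in WT J1. TPM gave 5 lower (-0.26) in Dnmt TKO, 3 higher (0.088, reversed) on day 2, 2 higher (-0.017) on day 14 and a median of -0.87 in the inhibitor control. Scaled by total count, they were 2 higher (-0.40) in G9a/GLP DKO, 7 lower (-0.30) in G9a CM, 2 and 7 in Dnmt DKO and 10 lower in Dnmt TKO, and the medians were 0.020 (reversed) on day 2 and -0.086 on day 14. By median of ratios they were 7 lower in G9a CM and 2 lower in WT J1, with medians of -0.29 on day 2 and -0.041 on day 4. With WT J1 as control they were 4 and 39 (-0.88) in G9a/GLP DKO and 5 and 28 (-0.69) in G9a CM. With WT TT2 as control they were 2 and 6 (-0.38) in Dnmt DKO and 2 and 6 (-0.26) in Dnmt TKO. That control reversed Atp5mpl (0.017), Cox7b (0.20) and Cox8a (0.37) in Dnmt DKO and Ndufs4 (0.0505), Ndufa6 (0.13), Uqcrc1 (-0.090) and Cox8a (0.22) in Dnmt TKO. A minimum of 10 CPM left 0 higher on day 2. A pseudocount of 0.1 gave 1 higher in G9a CM, 2 higher in Dnmt DKO, 2 higher and 1 lower on day 2 and 1 higher on day 14. Without the restricted isoforms 0 were higher in G9a/GLP DKO, 0 in Dnmt DKO, 3 in Dnmt TKO and 0 on day 2. Total-count scaling moved the median of all genes to 0.19 in G9a/GLP DKO, 0.19 in Dnmt DKO, 0.16 in Dnmt TKO, 0.22 on day 2, -0.11 in the inhibitor control and -0.10 in WT J1. Relative to all genes the member medians over the 4 scales were -0.59 to -0.50, -0.33 to -0.30, -0.67 to -0.56 and -0.58 to -0.57 in the G9a/GLP DKO, G9a CM, Dnmt DKO and Dnmt TKO comparisons. The share of higher among all 2-fold calls was 53.3%, 46.2%, 49.1% and 51.4% there by TMM, 70.0%, 56.7%, 63.7% and 65.5% by total count and 66.9%, 60.7%, 71.9% and 73.0% on TPM. It was 60.7%, 83.1% and 76.7% on day 2, 50.5%, 49.1% and 62.4% in the inhibitor control and 46.0%, 43.2% and 30.8% in WT J1, which gave 56.2% by median of ratios. The cause of these shifts was not tested. Depth limits Cox8c and Ndufa4l2 most, with 6 and 12 counts in their controls.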

Other observations

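Among ribosomal proteins, which are also short and abundant, values varied with the library compared, and no difference between comparisons was tested. Mitochondrial ribosomal proteins (78 genes) were lower by the 2-fold rule in 10 cases in G9a/GLP DKO (median log2 difference -0.45), 2 in G9a CM (-0.18), 1 in Dnmt DKO (-0.09) and 0 in Dnmt TKO (0.24), where 7.99%, 5.78%, 9.79% and 10.5% of all genes were lower. In Dnmt TKO 11 of the 78 genes were higher, where 11.1% of all genes were. Cytosolic ribosomal proteins (84 tested) had medians of -0.05 in G9a/GLP DKO, -0.14 in G9a CM, -0.48 in Dnmt DKO and -0.51 in Dnmt TKO, and in the inhibitor control against WT TT2 48 were lower (-1.12), where 23.7% of genes were. Rpl39l, a ribosomal paralog known from testis, was higher by 3.00 on the log2 scale in G9a/GLP DKO, 1.38 in G9a CM, 2.47 in Dnmt DKO, 2.51 in Dnmt TKO and 1.69, 1.92 and 1.59 on days 2, 4 and 14 of inhibitor. Rpl10l, another, was higher by 3.19 in G9a/GLP DKO, 2.40 in G9a CM, 1.49 in Dnmt DKO, 1.44 on day 4 and 1.65 on day 14. Ldhc was higher by 1.74 in G9a/GLP DKO, 1.97 in G9a CM, 3.04 in Dnmt DKO, 3.37 in Dnmt TKO and 1.18, 1.46 and 1.18 on days 2, 4 and 14.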
